A study of Homo sapiens with 6 samples.

Results

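A set of 10 genes of mucosal defence and the acute-phase response was followed in SKBR3 breast cancer cells before and after long exposure to trastuzumab. They are LCN2, LTF, SLPI, BPIFB1, S100A8 and S100A9, which encode secreted antimicrobial or protease-inhibiting proteins, SAA1, SAA2 and C3, which encode acute-phase proteins, and PIGR, the transport receptor of mucosal antibodies. They were taken by gene symbol, 10 of the 60612 genes with deposited counts. The choice was made with their difference between the groups already known, so that difference is described here without a test and supports nothing by itself. Of the 10, 9 passed the filter on low counts, among 17854 genes in all that did. LTF did not pass.

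SKBR3 is an established mammary epithelial cancer line that is HER2-positive. RNA sequencing covered 3 libraries of untreated cells, called parental below, and 3 libraries of cells kept for 30 weeks under increasing trastuzumab, an antibody against HER2, called trastuzumab below. The labels give no dose, do not say whether the drug was present at harvest, and do not say whether replicates came from separate cultures, so p-values measure only the spread between these libraries, which may be technical. Libraries held 71.02 to 82.9 M counts. Levels are given in CPM, a gene's counts divided by the library's scaled total in M, and a gene with no count in a library lay below 0.0372 to 0.0428 CPM, the level of 3 counts, for counting error only.

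Epithelia that face the outside world, including airway, gut and the ducts of breast and salivary gland, secrete proteins that starve, bind or kill microbes and others that restrain the proteases released by neutrophils. Dimeric IgA made by plasma cells is carried across such epithelia by the polymeric immunoglobulin receptor and released into the lumen with part of the receptor attached. The acute-phase response is the rise in a set of plasma proteins during inflammation, made mostly by the liver and also by epithelia, under the control of interleukin-6, interleukin-1 and TNF through STAT3, C/EBP and NF-kB factors.

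Promoter sequences are shown for LCN2, S100A8, S100A9 and PIGR because these genes span the range of changes described below and include the closely spaced S100A8 and S100A9 pair. RefSeq on GRCh38.p14 listed a promoter for 6 of the 10 genes (LCN2, LTF, BPIFB1, S100A8, S100A9 and PIGR). Each stretch reads 5′ to 3′ on the gene's own strand toward the first listed start site and leaves out bases that GENCODE 29 annotates as exon. The stretches are LCN2 at chr9:128149265-128149440 (plus strand), S100A8 at chr1:153391189-153391438 (minus strand), S100A9 at chr1:153357604-153357853 (plus strand) and PIGR at chr1:206946467-206946716 (minus strand). Capitals mark matches to the motifs searched.
LCN2: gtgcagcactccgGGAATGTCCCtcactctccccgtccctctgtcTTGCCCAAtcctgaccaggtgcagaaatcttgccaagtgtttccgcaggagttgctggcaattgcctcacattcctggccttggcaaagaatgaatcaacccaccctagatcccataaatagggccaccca
S100A8: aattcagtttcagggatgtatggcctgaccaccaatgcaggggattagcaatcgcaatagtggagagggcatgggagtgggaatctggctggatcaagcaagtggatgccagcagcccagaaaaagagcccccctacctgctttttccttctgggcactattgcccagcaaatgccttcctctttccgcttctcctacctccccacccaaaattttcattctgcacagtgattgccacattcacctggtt
S100A9: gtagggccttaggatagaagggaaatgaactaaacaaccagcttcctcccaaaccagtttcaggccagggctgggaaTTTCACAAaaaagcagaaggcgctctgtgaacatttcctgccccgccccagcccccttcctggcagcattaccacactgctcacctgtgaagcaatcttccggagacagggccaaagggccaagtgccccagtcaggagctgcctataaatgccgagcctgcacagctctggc
PIGR: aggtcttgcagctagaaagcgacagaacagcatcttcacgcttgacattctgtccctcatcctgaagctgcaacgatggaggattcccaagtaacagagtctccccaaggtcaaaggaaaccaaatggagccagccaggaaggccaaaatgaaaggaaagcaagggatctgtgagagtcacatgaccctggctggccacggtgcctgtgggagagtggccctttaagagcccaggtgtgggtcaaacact

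Both strands of the 250 bases before each start were searched for the NF-kB consensus, for a C/EBP motif written TTNNGNAA and for a STAT motif written TTCNNNGAA. In the LCN2 window the NF-kB consensus matched on the minus strand at the bases 175 to 166 before the start. LCN2 also held a C/EBP match 143 to 136 bases before the start. The S100A9 window held a single C/EBP match, 173 to 166 bases before the start. No motif matched in the PIGR or BPIFB1 window or at the first S100A8 start site, while the other 2 listed S100A8 start sites held 1 and 2 C/EBP matches. LTF, which had no counts, has 3 listed start sites, with a C/EBP match at the first and second and a STAT match, on both strands, at the third. No matches of different motifs overlapped in these windows. Over 35116 promoter windows of 250 bases, the NF-kB consensus matched in 5.21%, the C/EBP motif in 33.2% and the STAT motif in 6.57%. A match describes the letters only.

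Each of the 9 tested genes was higher in the trastuzumab libraries than in the parental ones, from 1.64-fold for S100A9 to 13.2-fold for PIGR in mean CPM. All 9 had every trastuzumab library above every parental library, as 28.3% of all tested genes did, and all 9 were called higher by edgeR, as 23.9% of tested genes were. At least a 2-fold rise in mean CPM was found in 8 of the 9, against 6.46% of tested genes. The median log2 fold change was 2.43 over the 9 genes and -0.01 over all tested genes. The genes were chosen on this contrast, and nothing is read from these shares. In bulk RNA, more RNA per cell and more cells that make a gene's RNA cannot be told apart.

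**Figure D1:**
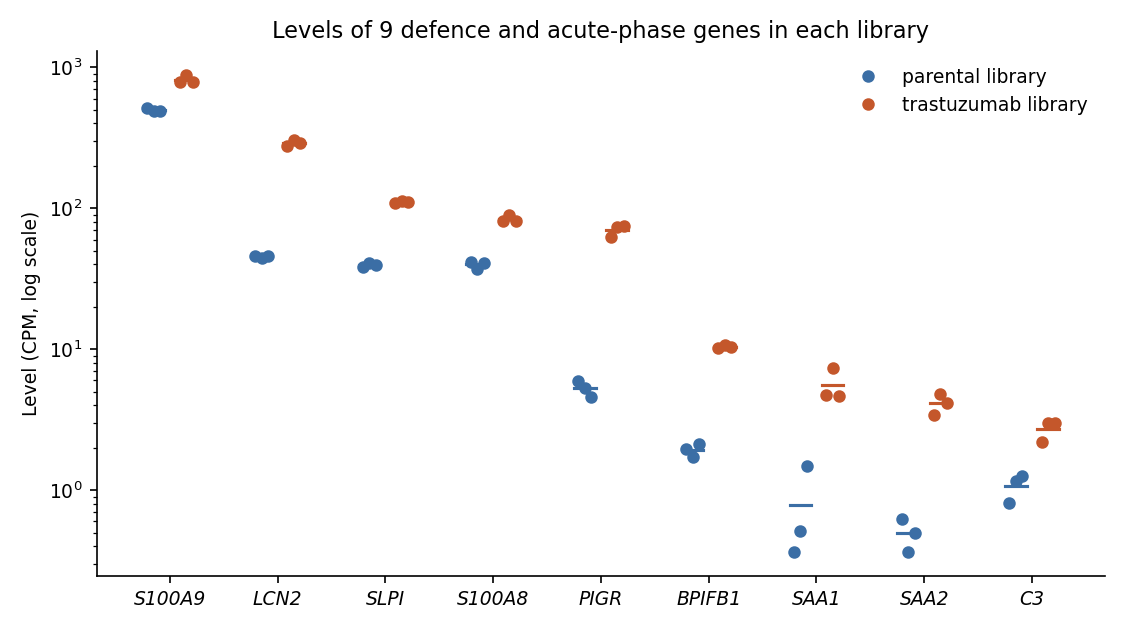
Level of each tested gene in each library, in CPM on a log axis, with parental libraries in blue, trastuzumab libraries in orange and the group mean as a bar. The groups do not overlap for any of the 9 genes, and S100A9 has the highest level in both groups.

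Among the antimicrobial and protease-inhibiting genes, LCN2 had the largest rise. LCN2 (ENSG00000148346, chromosome 9, 128149071 to 128153455 on hg38) encodes lipocalin-2, which binds bacterial siderophores and so withholds iron. It measured 45.9, 44.3 and 45.9 CPM in the parental libraries and 277, 305 and 289 CPM in the trastuzumab libraries. The libraries of each group lay close together and far from the other group, with means of 45.4 ± 0.96 and 290 ± 14 CPM (SD, n = 3). The log2 fold change was 2.68 with a standard error (SE) of 0.051, and 0.667% of tested genes had a larger one.

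SLPI (ENSG00000124107, chromosome 20, 45252239 to 45254564) encodes secretory leukocyte protease inhibitor, which blocks neutrophil elastase and has antimicrobial activity. It measured 38.3, 40.8 and 39.8 CPM in the parental libraries and 109, 112 and 112 CPM in the trastuzumab ones. The lowest trastuzumab library was 2.67-fold above the highest parental one, and the spread within groups was small, with a coefficient of variation of 3.15% in parental and 1.45% in trastuzumab libraries. The means were 2.80-fold apart. Its log2 fold change was 1.48 (SE 0.052).

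BPIFB1 (ENSG00000125999, chromosome 20, 33273480 to 33309878) encodes a secreted protein of airway mucus related to the bactericidal/permeability-increasing protein. Its level was low in parental libraries, at 1.95, 1.72 and 2.12 CPM, and reached 10.2, 10.7 and 10.4 CPM in the trastuzumab ones. The groups were 5.41-fold apart, with a log2 fold change of 2.43 (SE 0.15).

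S100A8 and S100A9 encode the subunits of calprotectin, which binds zinc and manganese and so withholds them from microbes. Both lie on chromosome 1, S100A9 (ENSG00000163220) at 153357854 to 153361027 and S100A8 (ENSG00000143546) at 153390032 to 153391188, on opposite strands. S100A8 measured 41.7, 37.1 and 41.1 CPM in the parental libraries and 80.7, 89.2 and 81.6 CPM in the trastuzumab ones. S100A9 was the most abundant of the 10 genes, at 515, 494 and 489 CPM in the parental libraries and 782, 888 and 788 CPM in the trastuzumab ones. Neither gene overlapped between groups, and in both trastuzumab replicate 2 was the highest. The log2 fold changes were 1.07 (SE 0.064) for S100A8 and 0.72 (SE 0.05) for S100A9, and 11.2% of tested genes had a larger one than S100A9.

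The members of this pair did not change in step. Per length, the ratio of S100A9 to S100A8 was 19.2, 20.7 and 18.5 in parental libraries and 15.1, 15.5 and 15.02 in trastuzumab libraries. Every trastuzumab ratio lay below every parental one, with means of 19.5 ± 1.1 and 15.2 ± 0.25 (SD, n = 3).

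LTF (ENSG00000012223, chromosome 3, 46435645 to 46485234) encodes lactoferrin, the iron-binding protein of milk and of neutrophil granules. It had 0 counts in all 6 libraries, so neither group rose above its detection limit and no fold change can be given. LTF was not detectable at this depth, unlike LCN2, the other iron-withholding protein of the set.

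Of the acute-phase genes, SAA1 and SAA2 encode serum amyloid A, an apolipoprotein of high-density lipoprotein that rises steeply in plasma during inflammation. SAA1 (ENSG00000173432, chromosome 11, 18266174 to 18269977) measured 0.365, 0.516 and 1.49 CPM in the parental libraries and 4.77, 7.36 and 4.69 CPM in the trastuzumab ones. Parental replicate 3 stood well above the other parental libraries, with 108 counts against 27 and 38, yet below every trastuzumab library. The log2 fold change was 2.83 (SE 0.58) and became 3.66 without that library.

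SAA2 (ENSG00000134339, chromosome 11, 18239223 to 18248643) measured 0.622, 0.367 and 0.495 CPM in the parental libraries and 3.44, 4.83 and 4.14 CPM in the trastuzumab ones. Its log2 fold change was 3.06 (SE 0.26), and parental replicate 3 was not high for it. The SAA1 to SAA2 ratio of counts ran from 0.587 to 3.0 in parental libraries and from 1.13 to 1.52 in trastuzumab libraries. The coding transcripts compared were 96.4% identical over 662 aligned bases, with 226 bases as the longest identical run, so reads could be split between them and the level of each is uncertain. SAA2 also overlaps the readthrough gene SAA2-SAA4 on the same strand.

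C3 (ENSG00000125730, chromosome 19, 6677704 to 6730562) encodes complement component 3, on which all complement routes converge. It measured 0.812, 1.15 and 1.25 CPM in the parental libraries and 2.18, 2.97 and 3.02 CPM in the trastuzumab ones. The lowest trastuzumab library was 1.75-fold above the highest parental one. The log2 fold change was 1.35 (SE 0.26), and C3 overlaps GPR108 on the same strand, whose reads may be counted with it. GPR108 stood far above C3, at 38.9 ± 1.2 CPM in the parental and 46.1 ± 0.086 CPM in the trastuzumab libraries (SD, n = 3). Its part in the C3 level was not tested.

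PIGR (ENSG00000162896, chromosome 1, 206928518 to 206946466) encodes the polymeric immunoglobulin receptor, which carries dimeric IgA and pentameric IgM to the luminal side of an epithelial cell. It measured 5.99, 5.34 and 4.59 CPM in the parental libraries and 62.8, 73.1 and 74.3 CPM in the trastuzumab ones. The lowest trastuzumab library was 10.5-fold above the highest parental one. This was the largest difference among the 9 genes, with a log2 fold change of 3.72 (SE 0.10), and 0.230% of tested genes had a larger one.

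**Figure D2:**
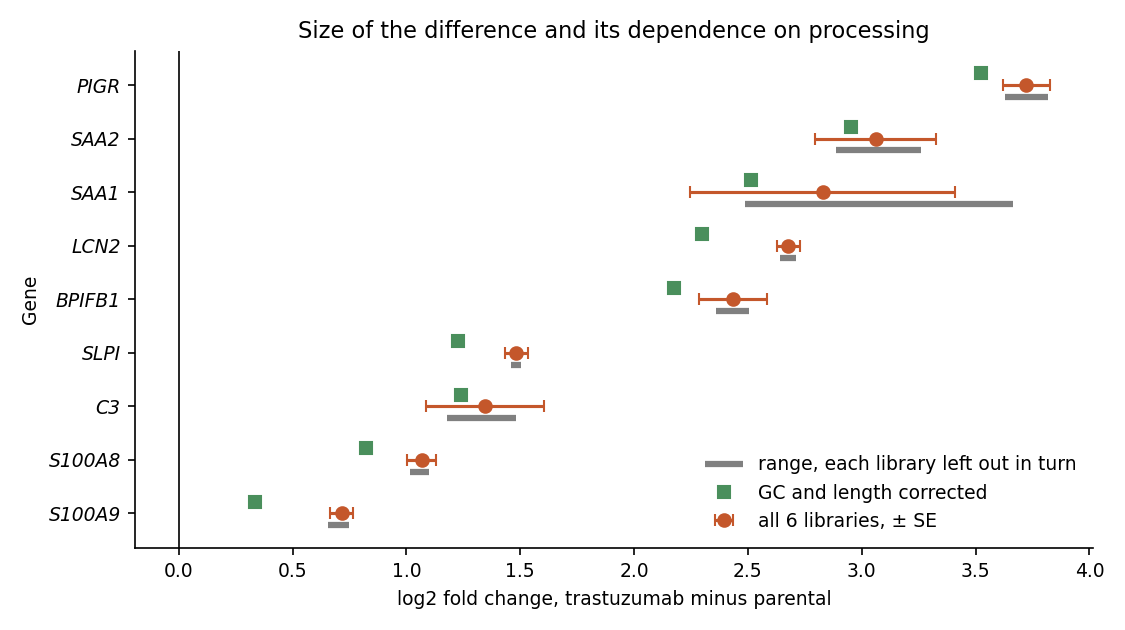
Log2 fold change of each tested gene, trastuzumab minus parental, with its SE over all 6 libraries (orange), its range when each library is left out in turn (grey bar) and its value after correction for GC content and length (green). All values lie above 0, SAA1 has the widest range, and S100A9 moves from 0.72 to 0.33 under the correction.

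The order of the genes by level shifted between the groups. Per length, in the deposited FPKM values (fragments scaled by gene length and library size), parental libraries placed S100A9 first at 785 ± 28, then SLPI at 59.95 ± 1.9, S100A8 at 40.4 ± 2.5 and LCN2 at 25.6 ± 0.50 (SD, n = 3). PIGR at 1.09 ± 0.16, SAA1 at 0.983 ± 0.76 and BPIFB1 at 0.57 ± 0.056 followed, and the spread of SAA1 covers both neighbours. SAA2 at 0.197 ± 0.05 and C3 at 0.11 ± 0.026 FPKM were lowest. In the trastuzumab libraries LCN2 had moved past S100A8, at 156 ± 7.3 against 80.7 ± 4.4 FPKM, and did not differ from SLPI at 159.7 ± 1.9 FPKM beyond its spread. The LCN2 to SLPI ratio was 0.405 to 0.447 in parental and 0.947 to 1.02 in trastuzumab libraries. PIGR reached 13.8 ± 1.2 FPKM, above SAA1 at 6.76 ± 1.8, BPIFB1 at 2.97 ± 0.074, SAA2 at 1.58 ± 0.26 and C3 at 0.273 ± 0.046 FPKM.

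S100A9 made up 85.4% to 86.3% of the summed FPKM of the genes in parental libraries and 73.8% to 75.2% in trastuzumab libraries. Among protein-coding genes by mean FPKM, S100A9 ranked 28 in parental and 18 in trastuzumab cells, while LCN2 went from rank 1534 to 198 and PIGR from 9517 to 2818. The lowest ranks in trastuzumab cells among the tested genes were those of SAA2 (8481) and C3 (11301).

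Of the 9 tested genes, 7 were highest in trastuzumab replicate 2, while C3 and PIGR were highest in replicate 3. Replicate 2 was also the deepest library, and CPM is scaled for depth. Replicate 1 was the lowest trastuzumab library for 8 of the 9 genes, SAA1 being the exception. Some markers of basal mammary epithelium set trastuzumab replicate 1 apart from the other trastuzumab libraries. KRT5, a basal keratin, measured 0.614 CPM in replicate 1 and 9.07 and 8.27 CPM in replicates 2 and 3. KRT14, its partner, measured 0.0571, 7.53 and 7.72 CPM. KRT17 (0.186, 3.30 and 1.90 CPM) and ACTA2 (1.08, 2.16 and 2.12 CPM) were also lowest in replicate 1. Other basal markers, TP63, MYLK and OXTR, were lower in trastuzumab than in parental libraries (log2 fold changes -1.43, -0.43 and -1.13). Among trastuzumab libraries OXTR was highest in replicate 1. The summed level of the 8 basal markers was 8.18 to 9.34 CPM in parental libraries and 5.84, 26.7 and 24.0 CPM in the trastuzumab ones. For the defence genes replicate 1 fell short of the trastuzumab mean by far less than for KRT5 and KRT14, at 80.1% (C3) to 98.4% (SLPI) of it. The share of all tested genes that were lowest in replicate 1 is not given here. Replicate 1 still stood above every parental library for each of the 9. With trastuzumab replicate 1 alone set against the parental libraries, the log2 fold changes were 3.56 for PIGR, 2.61 for LCN2, 2.4 for BPIFB1, 1.46 for SLPI, 1.01 for S100A8 and 0.65 for S100A9. They were 2.79 for SAA2, 2.59 for SAA1 and 1.02 for C3, and SAA1 and C3 were not called in this fit. Each of the 9 values was below that over all 6 libraries, which follows from replicate 1 lying below the group mean. The part of the basal markers in the lower level of replicate 1 was not tested.

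**Figure D3:**
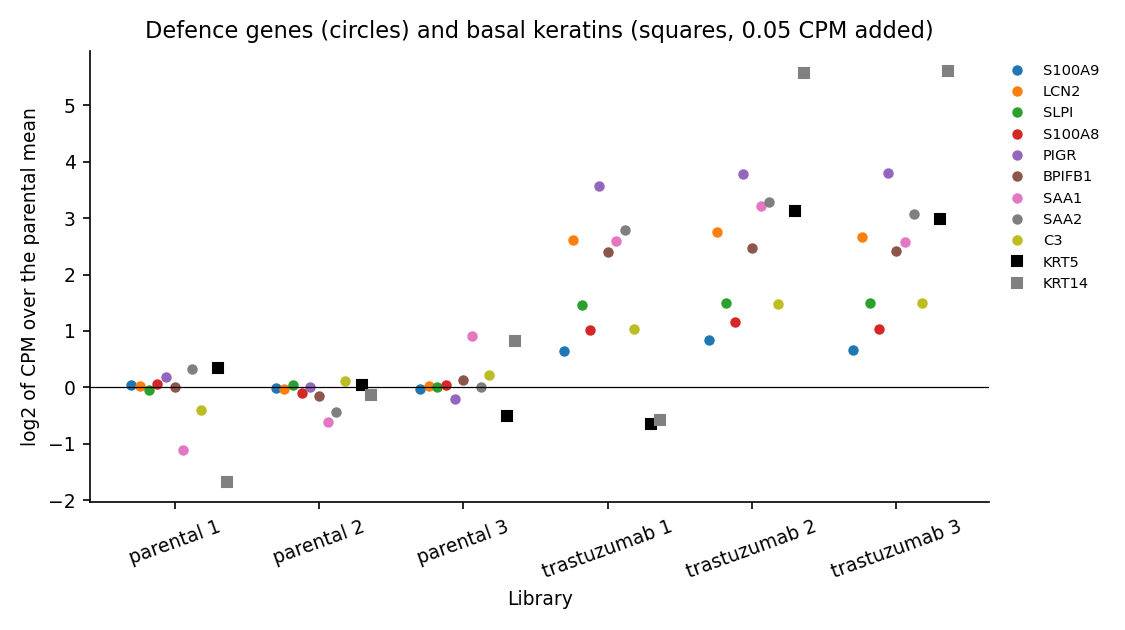
Log2 of the CPM of each tested defence gene (circles) over its parental mean in each library, beside the basal keratins KRT5 and KRT14 (squares, with 0.05 CPM added). The defence genes are raised in all trastuzumab libraries, whereas the keratins are raised in replicates 2 and 3 alone.

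Many of these genes are also neutrophil or liver genes, so markers of those cells were read in the same libraries. Of 15 neutrophil markers, 9 had 0 counts in all 6 libraries, among them MPO, ELANE, PRTN3 and AZU1, which encode proteins of the primary granules. The summed neutrophil marker level was 76.4 to 99.9 CPM in the parental libraries and 268 to 300 CPM in the trastuzumab ones, and CSF3R, the G-CSF receptor, made up most of it with 54.9 to 75.4 CPM in the parental libraries and 246 to 275 CPM in the trastuzumab ones. Of 10 hepatocyte markers, 4 had 0 counts in all libraries, ALB and TTR included, and the summed level was 656 to 742 CPM in the parental libraries and 183 to 210 CPM in the trastuzumab ones, nearly all of it CPS1. The 10 macrophage and monocyte markers summed to 68.0 to 92.1 CPM in the parental libraries and 59.6 to 66.0 CPM in the trastuzumab ones. That sum held opposite moves, with CSF1R at 53.8 to 74.8 CPM in the parental libraries and 15.2 to 17.1 CPM in the trastuzumab ones, and CD68, a lysosomal protein, at 13.2 to 16.2 and 40.9 to 46.9 CPM. In the same order the 10 lymphocyte markers summed to 0.963 to 1.58 and 1.76 to 2.11 CPM, the 10 fibroblast markers to 10.2 to 20.1 and 7.31 to 12.9 CPM, and the 8 endothelial markers to 29.9 to 33.2 and 79.4 to 86.4 CPM, most of it CDH5. AIF1, CD2, EMCN and CNN1, from the macrophage, lymphocyte, endothelial and basal lists, were at 0 in all libraries. The 10 luminal epithelial markers summed to 19039 to 20822 CPM in the parental libraries and 22024 to 23639 CPM in the trastuzumab ones, and none of them was below 1 CPM in every library. The part of CSF3R, CSF1R, CD68 or CDH5 in these results was not tested.

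Fold changes over all genes rose with the GC content of the transcript, with a Spearman rho of 0.642 over 11666 genes, a description across genes that share the same libraries. The 10 defence genes had 49.6% to 56.0% GC, and the median log2 fold change of the 2356 genes in that range was 0.13. After removal of the trend with GC content and length from each library, all 9 tested genes were still called higher, as 17.8% of tested genes then were, and their median was 2.18. The log2 fold changes became 3.53 for PIGR, 2.95 for SAA2, 2.51 for SAA1, 2.30 for LCN2, 2.18 for BPIFB1, 1.24 for C3, 1.23 for SLPI and 0.82 for S100A8. S100A9 fell most in proportion, to 0.33.

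Other genes of mucosal defence were then counted, from lists drawn up by function with earlier results of these data known. Of 53 further antimicrobial and mucosal secreted genes, 21 were tested, of which 13 rose, 1 fell and 7 missed the threshold (median log2 fold change 1.47). Over all tested genes 23.9% rose and 25.4% fell. After correction for GC content and length, 11 genes of the list were higher and 0 lower (median 1.12). Over all tested genes that correction left 17.8% higher and 19.0% lower. Most of this list is close to the detection limit, and of the 6 genes with at least 1 CPM in both groups 4 rose and 1 fell. RNASE1, a secreted ribonuclease, rose from 3.95 ± 1.3 to 12.7 ± 1.5 CPM (SD, n = 3, edgeR adjusted p = 3.13e-05), and ZG16B, a lectin-like salivary protein, from 11.3 ± 0.61 to 21.9 ± 2.2 CPM (edgeR adjusted p = 5.82e-07). LGALS9, a galectin, rose from 0.655 ± 0.20 to 2.87 ± 0.38 CPM and PGLYRP4, a peptidoglycan recognition protein, from 0.236 ± 0.055 to 1.21 ± 0.47 CPM. CCL20, a chemokine with antimicrobial activity, rose from 0.131 ± 0.15 to 1.31 ± 0.33 CPM (edgeR adjusted p = 0.0127), a call that was lost without parental replicate 1 (edgeR adjusted p = 0.0877) and with trastuzumab replicate 1 alone (0.146).

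Relatives of BPIFB1 and SLPI belong to the same list, and the following were chosen after their values were seen. BPIFA1, which lies in the same gene cluster as BPIFB1, had 0 counts in all parental libraries and 24, 12 and 12 counts in the trastuzumab libraries, which is at least 5.18-fold higher against the floor of 3 counts per library. BPIFA2 of that cluster rose from 0.807 ± 0.56 to 2.44 ± 0.31 CPM (edgeR adjusted p = 0.00311). PI3, which encodes the protease inhibitor elafin and lies near SLPI, rose from 0.186 ± 0.076 to 0.871 ± 0.11 CPM (edgeR adjusted p = 0.00128). With trastuzumab replicate 1 alone the calls of BPIFA2 and PI3 were lost (edgeR adjusted p = 0.0700 and 0.0590). All of these levels were far below those of SLPI.

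**Figure D4:**
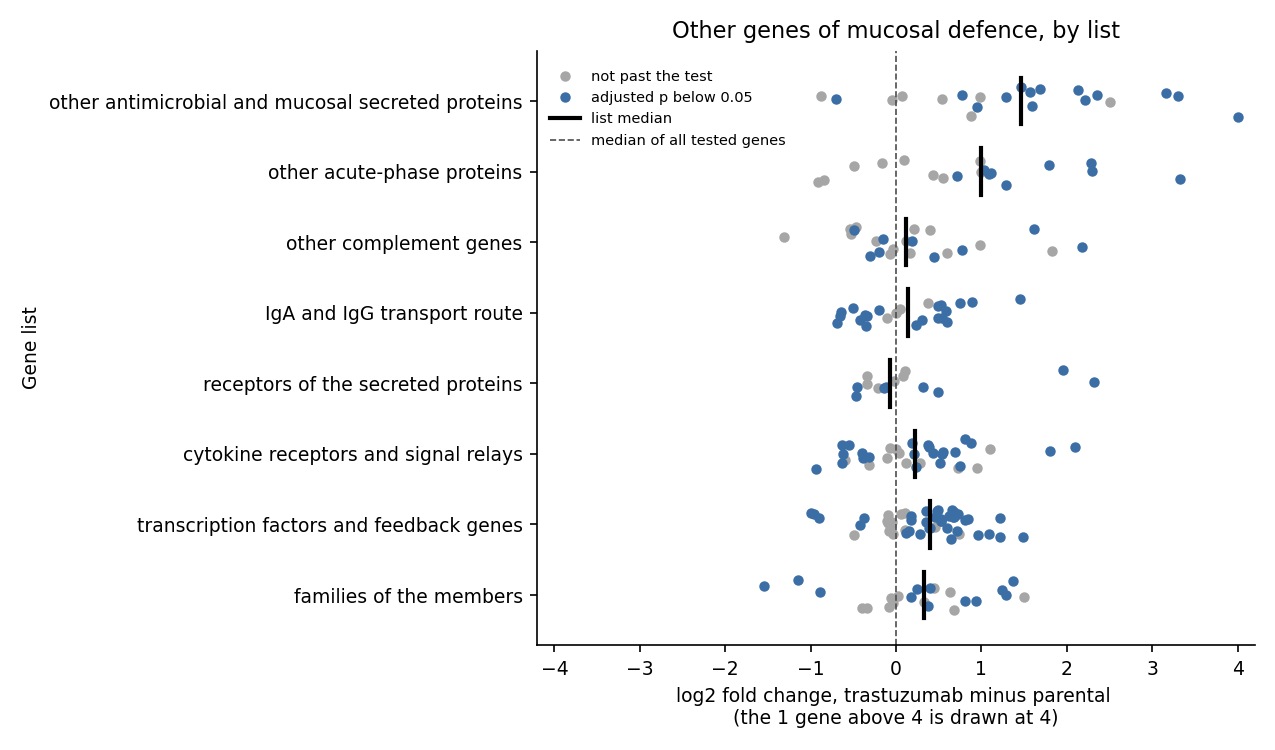
Log2 fold change (trastuzumab minus parental) of every tested gene in 8 lists of related genes, blue where the edgeR adjusted p was below 0.05 and grey where not, with the list median as a black line and the median of all tested genes dashed. Without correction for GC content and length, the antimicrobial and acute-phase lists have medians of 1.47 and 0.99, and the other 6 lie between -0.07 and 0.40. With the correction, not drawn, these become 1.12 and 0.66, and the other 6 lie between 0.01 and 0.13.

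Of 29 further acute-phase genes, 18 were tested, of which 9 rose and 9 missed the threshold (median log2 fold change 0.99). Among the 11 with at least 1 CPM in both groups, 6 rose and 0 fell. CP, which encodes the copper ferroxidase ceruloplasmin, rose from 40.9 ± 5.6 to 141 ± 2.9 CPM, a log2 fold change of 1.79 (SE 0.086, edgeR adjusted p = 2.04e-08). SERPINA3, or antichymotrypsin, rose from 0.172 ± 0.098 to 1.74 ± 0.13 CPM (edgeR adjusted p = 4.53e-06). IL1RN, the interleukin-1 receptor antagonist, rose from 0.219 ± 0.12 to 1.07 ± 0.098 CPM, and C4BPA, a complement inhibitor of plasma, from 0.426 ± 0.17 to 2.09 ± 0.37 CPM. FTH1, the ferritin heavy chain and the most abundant gene of the list, measured 860 ± 31 and 918 ± 31 CPM (edgeR adjusted p = 0.0833), and its log2 fold change of 0.09 turned to -0.20 after correction for GC content and length. The correction left 9 genes of the list higher and 2 lower (median 0.66).

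Complement genes other than C3 did not move one way. Of 46, 23 were tested, and 5 rose, 4 fell and 14 missed the threshold (median log2 fold change 0.11). The balance shifted to 7 higher and 2 lower after the correction for GC content and length. CFB, which encodes the factor B that joins C3b in the alternative route convertase, rose from 4.63 ± 0.31 to 14.1 ± 1.3 CPM (edgeR adjusted p = 2.38e-08). C1S, a protease of the classical route, rose from 4.88 ± 0.31 to 8.34 ± 0.59 CPM, and CTSL, a lysosomal protease that can cleave C3, from 66.6 ± 1.2 to 91.0 ± 2.5 CPM. CFB overlaps C2 and C1S overlaps EMG1 on the same strand, so their levels are uncertain to that extent. CLU, a fluid-phase inhibitor of the membrane attack complex, fell from 477 ± 34 to 415 ± 7.5 CPM (edgeR adjusted p = 0.00299), a call lost with trastuzumab replicate 1 alone (0.0775).

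CD46, a membrane cofactor that inactivates C3b on the cell's own surface, fell from 416 ± 31 to 297 ± 13 CPM, a log2 fold change of -0.49 (SE 0.054, edgeR adjusted p = 1.49e-06). Its direction turned to 0.13 after correction for GC content and length. CD55 and CD59, membrane inhibitors chosen after their values were seen, had log2 fold changes of -0.30 and -0.16 that likewise became 0.05 and 0.14, and neither was called with trastuzumab replicate 1 alone (edgeR adjusted p = 0.286 and 0.0614). The direction of this group of inhibitors therefore depends on that correction.

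Genes of the route that PIGR serves also moved in both directions. Of 27 genes of IgA and IgG transport, 24 were tested, and 11 rose, 9 fell and 4 did not pass, with 7 higher and 6 lower after the correction. B2M, which pairs with the neonatal Fc receptor and with MHC class I chains, rose from 355 ± 17 to 595 ± 18 CPM (edgeR adjusted p = 2.02e-09). MAL2, a membrane protein of the transcytosis route, fell from 1892 ± 87 to 1409 ± 57 CPM, a log2 fold change of -0.42 (edgeR adjusted p = 6.58e-07). The exocyst subunits EXOC2 and EXOC6 fell by 0.66 and 0.69 on the log2 scale, and EXOC6 became -0.13 after the correction (edgeR adjusted p = 0.437) and lost its call with trastuzumab replicate 1 alone (0.0728). FCMR, the Fc receptor of IgM, measured 0.926 ± 0.14 and 1.72 ± 0.75 CPM, and its call (edgeR adjusted p = 0.0363) was lost when trastuzumab replicate 1 was left out (0.297) and after the correction (0.231).

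Receptors for the secreted proteins were called in both directions, 4 higher and 4 lower of 14 tested among 28. ITGAM and ITGB2 encode the chains of complement receptor 3, which binds a fragment of C3. ITGB2 rose from 2.99 ± 0.51 to 11.7 ± 0.39 CPM (edgeR adjusted p = 2.05e-08). ITGAM, which is also among the macrophage markers above, rose from 0.459 ± 0.32 to 2.29 ± 0.13 CPM (edgeR adjusted p = 0.0043), and the call was lost with trastuzumab replicate 1 alone (0.0824). LRP1, an endocytic receptor, rose from 9.15 ± 0.62 to 12.8 ± 0.90 CPM, while NCL, or nucleolin, fell from 602 ± 20 to 436 ± 12 CPM.

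Upstream, 44 genes of cytokine receptors and signal relays held 34 tested genes, of which 15 rose, 8 fell and 11 did not pass. TNF, the inflammatory cytokine, rose from 0.744 ± 0.30 to 2.60 ± 0.65 CPM (edgeR adjusted p = 0.000202), and LIF, an interleukin-6 family cytokine, from 1.82 ± 0.44 to 3.33 ± 0.78 CPM (0.00684). With trastuzumab replicate 1 alone both calls were lost (0.0515 and 0.428), and LIF also lost its call after the correction (0.0962). IL17RC, a chain of the interleukin-17 receptor, rose from 22.1 ± 1.1 to 38.7 ± 3.5 CPM, and IRAK1, a kinase below interleukin-1 and Toll-like receptors, from 240.1 ± 17 to 402 ± 10 CPM. JAK2, a kinase of cytokine receptors, fell from 4.74 ± 0.55 to 2.48 ± 0.40 CPM (edgeR adjusted p = 0.000526), and this was lost with trastuzumab replicate 1 alone (0.0614). After the correction 9 of the list were higher and 4 lower.

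Of 52 transcription factors and feedback genes, 49 were tested, and 31 rose, 5 fell and 13 missed the threshold (median log2 fold change 0.40). The median became 0.12 after the correction, with 21 higher and 8 lower. ELF3, an epithelial ETS factor, rose from 431 ± 24 to 998 ± 36 CPM, a log2 fold change of 1.21 (SE 0.047, edgeR adjusted p = 1.54e-11). IRF1, a factor of the interferon response, rose from 10.01 ± 0.96 to 28.1 ± 2.0 CPM. The NF-kB subunit gene RELB rose from 12.02 ± 0.46 to 27.9 ± 2.3 CPM, and NFKBIE, which encodes an inhibitor of NF-kB, from 15.2 ± 1.7 to 32.3 ± 3.1 CPM. CEBPB and STAT3, chosen after their values were seen as factors of the acute-phase response, had log2 fold changes of 0.68 and 0.12, which became 0.22 and 0.17 after the correction. The STAT3 call (edgeR adjusted p = 0.0194) was lost when parental replicate 1 or 2 or trastuzumab replicate 1 or 3 was left out (0.0522 to 0.0797) and with trastuzumab replicate 1 alone (0.283).

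The protein families of the 10 genes were read to see how far relatives moved with them. Of 60 relatives, 23 were tested, and 9 rose, 3 fell and 11 did not pass. After the correction 6 were higher and 8 lower, beside 17.8% and 19.0% of all tested genes. The lipocalin APOD rose from 23.5 ± 2.9 to 60.8 ± 4.3 CPM (edgeR adjusted p = 3.74e-09), and the lipocalin AMBP from 0.90 ± 0.27 to 2.13 ± 0.35 CPM. S100P, an S100 gene outside the chromosome 1 cluster, rose from 147 ± 5.4 to 360 ± 15 CPM. A2ML1, a protease inhibitor of the same superfamily as C3, fell from 30.1 ± 0.95 to 13.6 ± 1.2 CPM, a log2 fold change of -1.14 (edgeR adjusted p = 1.93e-08).

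Within the chromosome 1 cluster, the other S100 genes were called in both directions. S100A12, which lies between S100A9 and S100A8, measured 0.191 ± 0.14 and 0.353 ± 0.16 CPM (edgeR adjusted p = 0.363), with groups that overlapped. S100A7A, on the far side of S100A8, had 0 counts in every parental library and 17, 10 and 8 in the trastuzumab libraries, at least 3.77-fold higher against the floor of 3 counts per library, and did not pass the filter. S100A7, next in order among the tested genes, had 0, 0 and 24 counts in the parental libraries and 8, 71 and 72 in the trastuzumab ones (edgeR adjusted p = 0.265), and its groups overlapped. S100A14, the most abundant of the relatives, measured 723 ± 20 and 685 ± 15 CPM (edgeR adjusted p = 0.128) and was lower after the correction (log2 fold change -0.39). S100A4 fell from 321 ± 8.4 to 174 ± 4.9 CPM, a log2 fold change of -0.88, and S100A3, which overlaps it, by 1.54 on the log2 scale (edgeR adjusted p = 0.0416). The S100A3 call was lost when any library but trastuzumab replicate 2 was left out (edgeR adjusted p from 0.0574 to 0.171). S100A11, S100A13 and S100A6 rose by 0.37, 0.40 and 0.18 on the log2 scale, but S100A6 turned to -0.30 and S100A13 to 0.08 after the correction, and the S100A6 call was lost with trastuzumab replicate 1 alone (edgeR adjusted p = 0.0885). These cluster genes other than S100A14 were chosen after their values were seen.

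**Figure D5:**
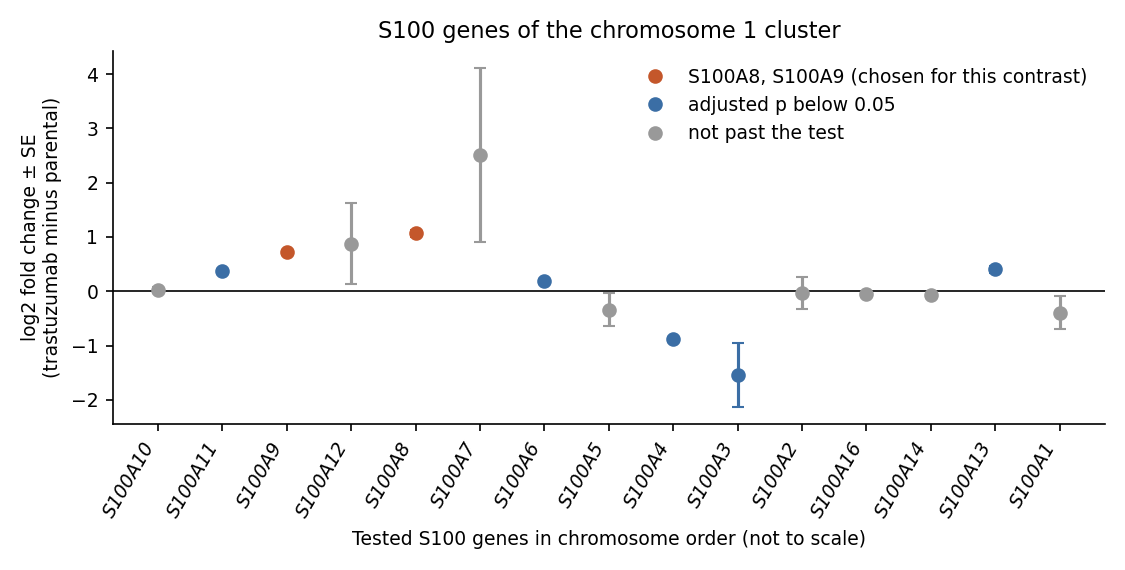
Log2 fold change with SE of each tested S100 gene of the chromosome 1 cluster, in chromosome order, with S100A8 and S100A9 in orange, other genes with an edgeR adjusted p below 0.05 in blue and the rest in grey. S100A8 and S100A9 lie at 1.07 and 0.72, S100A4 at -0.88.

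Counts of protein-coding genes within 250 kb follow for 9 of the 10 genes, without the correction for GC content and length. Around LCN2, 9 of 18 tested neighbours rose and the others did not pass the test. After the correction EEIG1 alone of these neighbours was called higher (log2 fold change 0.74). PTGES2, ST6GALNAC4, SLC27A4 and GOLGA2 were then called lower (-0.25, -0.36, -0.43 and -0.14). Around SLPI, 5 of 9 rose and 1 fell. Around PIGR, 3 of 8 rose, C4BPA among them, and 4 fell. Around SAA1, 1 of 6 rose and 3 fell, around SAA2 1 of 7 rose and 3 fell, and around C3 3 of 9 rose and 2 fell. Around S100A8, 4 of 13 rose and 2 fell, around S100A9 2 of 9 rose and 2 fell, and around LTF 1 of 5 rose and 1 fell. Windows of genes on the same chromosome stretch share neighbours.

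The genes most like the defence genes across the 6 libraries were found from the distance between centred log2 CPM profiles, against the median profile of the 7 defence genes with at least 1 CPM in each group. Of 8691 candidates with a mean of at least 10 CPM, the nearest was PTGES, which encodes a prostaglandin E synthase, at a distance of 0.115. It measured 151 ± 1.4 CPM in the parental libraries and 438 ± 21 CPM in the trastuzumab ones. SELE, the adhesion molecule E-selectin, followed at 0.132, with 9.02 ± 0.37 and 26.3 ± 0.56 CPM. PTK7, a receptor pseudokinase, PSMB8, an immunoproteasome subunit, LAMB3, a laminin chain, and GLB1L2 followed at distances of 0.139, 0.154, 0.162 and 0.171. SELE overlaps C1orf112 and PSMB8 overlaps PSMB9, each on the other strand, so their levels are uncertain to that extent. These distances describe a profile over 6 libraries in which the group difference dominates.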

How the data were processed

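The deposited files hold, for each of the 6 libraries, unnormalized counts for 60612 Ensembl genes and FPKM values, which the authors scaled by gene length and library size, for 33686 of these genes. STAR 2.4.2a and hg38 are named in the submitters' processing notes, and the library kit was directional per the labels' protocols. How reads were counted, with which strand setting and annotation, is not given in the sources used here. Overlapping and antisense genes therefore cannot be told apart.

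The main test was the robust quasi-likelihood test of edgeR 4.0.16 (R 4.3.3) on the deposited counts, with TMM factors, the filterByExpr filter and no covariate, over 17854 genes. P-values were adjusted by Benjamini-Hochberg, with 0.05 as the threshold, and adjusted p-values in the text are from this test. CPM used the total counts of the tested genes in each library, scaled by its TMM factor (0.974 to 1.03). Gene positions and transcript properties are those of GENCODE 29. The correction for GC content and length fitted a spline (5 degrees of freedom for each property) per library and passed it to edgeR as offsets. It also removes any real change that follows these properties. All 430 list and marker symbols were matched to the files.

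The 10 genes and the 8 lists of related genes were chosen with earlier results of these data known. From each list the text names up to 4 called genes of at least 1 CPM in the higher group with the largest change, and the tested gene with the highest mean. Other genes are identified as chosen after their values were seen. Alternatives were other scaling factors, other filters, DESeq2 1.42.0, limma-voom and limma 3.58.1 on log2(FPKM + 1) and log2(FPKM + 0.1), the replicate number as a block, the GC and length offsets, a threshold of 0.01 and leaving out each library. Leaving out trastuzumab replicates 2 and 3 together was added after seeing the data, and the lone trastuzumab library is then assumed to vary like the parental ones. Libraries of a group always differed by more than sampling noise, with chi-square values of 17.2 to 29.3 times their degrees of freedom (12882 genes). The fitting script was tested on simulated data. Promoters came from RefSeq on GRCh38.p14. The neighbour count around BPIFB1 is not reported here.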

Additional observations from a re-analysis of the deposited data

How the results depend on the processing

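The 9 tested defence genes kept their direction under every alternative in which they were fitted, the 8 that passed an FPKM filter included. Their median log2 fold change was 2.43, ran from 2.36 to 2.50 when each library was left out, and was 1.37 on log2(FPKM + 1), 1.34 on the same without a filter, 2.18 with GC and length offsets and 1.66 for the lowest trastuzumab against the highest parental library. The pseudocount of 1 FPKM understates low genes by construction, and C3 fell to 0.20 there.

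Of the lists, the count of called antimicrobial genes, 14, was 8 with at least 1 CPM in 3 libraries, 7 with log2(FPKM + 1), 7 with log2(FPKM + 0.1) and 7 without trastuzumab replicates 2 and 3, with fewer genes or samples tested in each. It was 10 to 15 when each library was left out. The offsets took the IgA and IgG route from 20 calls to 13 and the cytokine list from 23 to 13, and turned FTH1 to -0.20 and CD46 to 0.13. Without trastuzumab replicates 2 and 3, calls were 4 against 9 for complement, 5 against 8 for receptors and 14 against 23 for cytokine genes.

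Whether replicate numbers pair the libraries is not stated in the labels. Deviations of same-numbered libraries correlated weakly, at 0.021, 0.076 and 0.113 over 13206 genes. Each library correlated best with its own number, a hint from the data and not from the design. With the replicate block 8653 genes were called against 8808 without it, and the median of the defence genes was 2.44. The block with the offsets gave 6145 calls, a median of 2.18, 13 IgA and IgG route genes, 11 cytokine genes, -0.20 for FTH1 and 0.13 for CD46. Among the tested defence genes, counting error was largest for SAA1, SAA2 and C3, with as few as 27 counts in a library. SAA1 also spread widely between parental libraries, with a coefficient of variation of 77.0%. LTF was below the detection limit.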
